A study of Mus musculus with 2 samples.

Results

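The terminal complement components are the plasma proteins C5, C6, C7, C8 and C9, which assemble into the membrane attack complex. Their genes in the mouse are Hc, which encodes C5, and C6, C7, C8a, C8b, C8g and C9. The 7 genes were named as a group with earlier results of these data known, and every probe set whose platform annotation gives 1 of their symbols was taken. The annotation gave 1 probe set each to 6 of them, so 6 probe sets of 22626 and 6 genes of 12393 are described. No probe set carried the symbol C7, which was not analysed here.

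Liver RNA was measured on 2 Affymetrix arrays. Both came from mice that lack apolipoprotein E and ate a high-fat diet. For 1 of them (sample title orujo) the diet held added unsaponifiable fraction, the minor components of olive oil that are left when its fatty acid esters have been split off. For the other (sample title olive) it held added olive oil. Animals without apolipoprotein E develop high plasma cholesterol and atherosclerosis, and no array of animals that carry the gene was analysed here. Sex, age, strain background, time on the diet and any pooling of animals are not given in the labels. With 1 array per diet the diets could not be tested against each other, and each ratio is one between 2 arrays without an error between animals. In whole liver RNA, fewer cells of a type and less RNA per cell cannot be told apart.

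Hepatocytes make most of the complement proteins in plasma. When an activated convertase splits C5, the small fragment C5a attracts and activates leukocytes, and the large fragment C5b binds C6 and then C7, which anchors the complex to a membrane. C8 joins next and enters the lipid bilayer, and several C9 molecules then complete a pore. C6, C7, the alpha and beta chains of C8 and C9 share the membrane attack complex/perforin fold, while the gamma chain of C8 belongs to the lipocalins and C5 is related to C3 and C4.

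Of the 6 genes, 4 had higher signal on the orujo array than on the olive array, against 47.5% of all measured genes and 51.4% of the 972 at least as bright as the dimmest member with a ratio above 0, and the other two were nearly equal on both arrays. C8b was highest by ratio at 2.15-fold, followed by C8a at 1.81-fold, C6 at 1.73-fold and C9 at 1.47-fold. Hc and C8g had log2 ratios of −0.02 and −0.04. Log2 ratios are the orujo array minus the olive array, after both were scaled to 1 trimmed mean, a change by a factor of 1.001 and 0.999. The intensities quoted below are as deposited, on a linear scale.

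**Figure D1:**
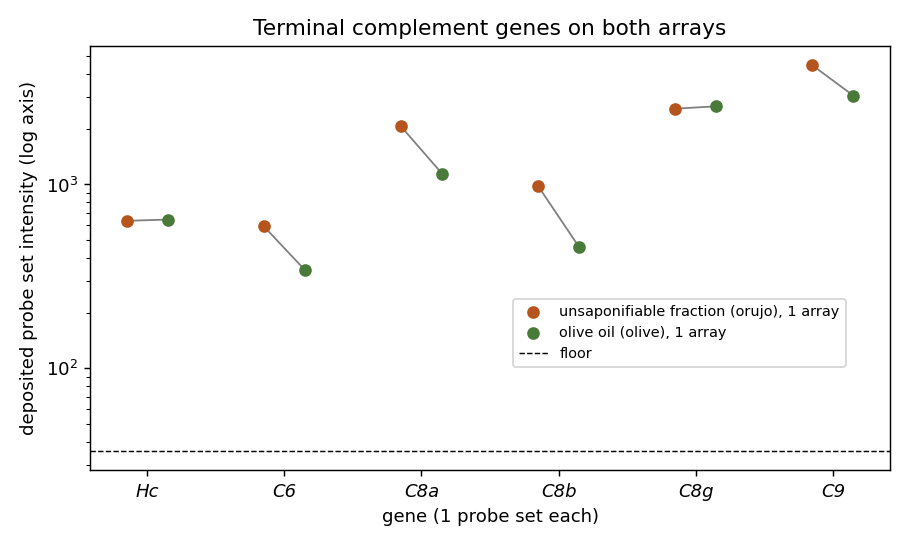
Deposited intensity (log axis) of the 6 terminal complement genes, 1 probe set each, with the orujo array left and the olive array right in each pair, and the floor of 35.6 as a dashed line. The lines of C6, C8a, C8b and C9 slope down to the olive array, those of Hc and C8g are close to level, and all points lie well above the floor.

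All 6 probe sets were far from the low end of the arrays. The floor, which was the median of both arrays' scaled intensities pooled, was 35.6 and stands in for detection calls. The dimmest value, that of C6 on the olive array, lay 9.6-fold above it. Of all genes, 6640 were above the floor on both arrays, and these are the genes called measured here. Each member is read from a single probe set, so no member has a repeated measurement. Over the 2057 genes with at least 2 measured probe sets, the log2 ratios of the 2 brightest differed with an SD of 0.43. Among the 212 of them with both probe sets at least as bright as C6 by the mean log2 of both arrays, that SD was 0.35, which puts the noise of 1 probe set at 0.25. This noise comes from within the arrays and holds nothing of the variation between animals.

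C5 stands at the start of the terminal pathway. Hc had an intensity of 634.5 on the orujo array and 644.4 on the olive array. These values are nearly equal, and the log2 ratio of −0.02 lay in the middle of all measured genes, above 49.9% of them. Some inbred mouse strains carry a deletion in Hc and make no C5 protein. The signal of this gene was 17.8-fold above the floor on the lower array. RNA signal does not show whether C5 protein was made, and the labels give no strain background. Whether the deletion would remove the signal of this probe set is unknown here.

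C6 binds C5b and begins the assembly. Its intensity was 592.5 on the orujo array and 342.6 on the olive array. It was thus 1.73-fold higher on the orujo array (log2 ratio 0.79), a larger ratio than that of 97.4% of measured genes. Relative to Hc, the gene of its binding partner, the log2 ratio of C6 was greater by 0.81, which exceeds the SD of 0.35 between probe sets of 1 gene. In the RefSeq annotation of assembly GRCm38.p6, C6, C7 and C9 lie on mouse chromosome 15, with 1 protein-coding gene between C6 and C7 and 6 between C7 and C9.

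C8 consists of 3 chains from 3 genes. The beta chain binds the C5b-7 complex, the alpha chain is the first to enter the membrane, and the gamma chain is linked to the alpha chain by a disulphide bond. C8b had an intensity of 981.1 on the orujo array and 456.2 on the olive array, 2.15-fold higher (log2 ratio 1.11). C8a had 2069.4 on the orujo array and 1145.3 on the olive array, 1.81-fold higher (log2 ratio 0.86). C8g had 2581.3 on the orujo array and 2660.7 on the olive array, which leaves a log2 ratio of −0.04. The probe sets of the 3 chains did not share 1 ratio: that of C8b was greater than that of C8g by 1.15 on the log2 scale, and that of C8a by 0.90. Both gaps are more than 2-fold the SD of 0.35 between probe sets of 1 gene, while the gap between C8b and C8a, 0.25, is smaller than it. Probe sets of 1 gene can also lie far apart: those of Clu ran from −0.21 to 0.74. With 1 probe set per chain, a difference between probe sets cannot be told apart from one between chains. C8b and C8g were read from probe sets with the suffix _a, which marks probes that fit more than 1 transcript, whereas the probe set of C8a has no such suffix.

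C8a and C8b are also neighbours: in the same annotation they lie next to each other on chromosome 4 with 0 protein-coding genes between them. On the other side of C8b lies Dab1, whose intensity of 48.4 on the orujo array was above the floor and whose 31.1 on the olive array was below it. C8g lies on chromosome 2 beside Fbxw5, which had 67.8 on the orujo array and 65.5 on the olive array (log2 ratio 0.05). Beside C9, Dab2 had 70.3 on the orujo array and 89.7 on the olive array (log2 ratio −0.35). Fbxw5 and Dab2 were within 1.5-fold, as were most measured genes, of which 5.57% were at least 1.5-fold higher and 5.56% lower.

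The sequence around the start of each C8 gene is shown because these chains form 1 protein and their probe sets gave unequal ratios. The windows run from 250 bases before to 50 after the start, 5′ to 3′ on the gene's strand, from RefSeq on GRCm38.p6: C8a is chr4:104876349-104876648 (minus strand), C8b is chr4:104766067-104766366 (plus strand), and C8g, with 2 annotated starts, is chr2:25501670-25501969 and chr2:25500457-25500756 (minus strand). Capitals mark matches, on either strand, to motifs of factors known at liver promoters and to the TATA box.
C8a: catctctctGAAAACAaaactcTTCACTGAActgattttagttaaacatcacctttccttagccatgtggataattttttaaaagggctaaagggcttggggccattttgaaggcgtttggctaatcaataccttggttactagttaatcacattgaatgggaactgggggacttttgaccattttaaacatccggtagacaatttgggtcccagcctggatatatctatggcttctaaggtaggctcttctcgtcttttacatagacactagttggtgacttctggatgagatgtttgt
C8b: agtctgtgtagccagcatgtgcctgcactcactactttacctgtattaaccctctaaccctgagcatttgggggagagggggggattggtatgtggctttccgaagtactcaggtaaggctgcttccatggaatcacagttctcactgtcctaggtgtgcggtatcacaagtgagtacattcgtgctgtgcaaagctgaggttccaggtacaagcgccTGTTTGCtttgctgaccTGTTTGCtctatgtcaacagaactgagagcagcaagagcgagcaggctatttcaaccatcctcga
C8g, first window: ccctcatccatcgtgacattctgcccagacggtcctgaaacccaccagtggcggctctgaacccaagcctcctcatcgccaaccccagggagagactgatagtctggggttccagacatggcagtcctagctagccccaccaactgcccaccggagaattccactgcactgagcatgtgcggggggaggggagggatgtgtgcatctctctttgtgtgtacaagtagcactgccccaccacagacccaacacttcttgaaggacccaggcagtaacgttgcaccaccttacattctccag
C8g, other window: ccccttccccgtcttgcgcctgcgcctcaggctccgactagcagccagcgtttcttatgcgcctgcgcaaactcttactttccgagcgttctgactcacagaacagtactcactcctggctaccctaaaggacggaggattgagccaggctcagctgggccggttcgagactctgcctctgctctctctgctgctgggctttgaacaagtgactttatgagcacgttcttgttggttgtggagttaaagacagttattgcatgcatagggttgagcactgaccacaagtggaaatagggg

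The motifs searched were TTGCNNAA for C/EBP, TTCNNNGAA for STAT, CAAAGTCCA for HNF4, TGTTTNC for FOXA and TATAAA for the TATA box. The 7 genes have 8 windows. The FOXA letters occurred in C8a, C8b and C6, in 3 of the 8 windows, and in 20.5% of all 32851 windows of this length. In C8b they stand at 2 places, 32 to 26 and 15 to 9 bases before the start. The STAT letters stood in C8a and C7 (8.30% of all windows), the C/EBP letters in C9 (10.8%) and the letters TATAAA in Hc and C7 (13.6%). In Hc the letters TATAAA stood 239 to 234 bases before the start, and in C7 they stood 6 to 1 bases before it on the other strand. The HNF4 letters were in none of the 8 windows and in 0.475% of all. Neither window of C8g held any of these letters. A match of letters is not a bound site, and these arrays measure no binding.

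C9 forms the wall of the pore. It had an intensity of 4448.1 on the orujo array and 3036.6 on the olive array, 1.47-fold higher (log2 ratio 0.55). That ratio is larger than those of 93.5% of measured genes. It is the smallest of the 4 higher ratios and lay just under 1.5-fold.

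In order of ratio the genes were C8b, C8a, C6, C9, Hc and C8g. Neighbours in this order differed by 0.25 (C8b and C8a), 0.06 (C8a and C6), 0.24 (C6 and C9), 0.57 (C9 and Hc) and 0.02 (Hc and C8g) on the log2 scale. Only the step between C9 and Hc exceeds the SD of 0.35 between probe sets of 1 gene. The order of the other neighbours is not resolved. That of C9 and Hc was not tested, since this SD holds nothing of the variation between animals. The step between C9 and Hc was 0.47 to 0.57 over the scalings, and among the 4 higher genes C8b exceeded C9 by a like amount, 0.55 to 0.65.

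**Figure D2:**
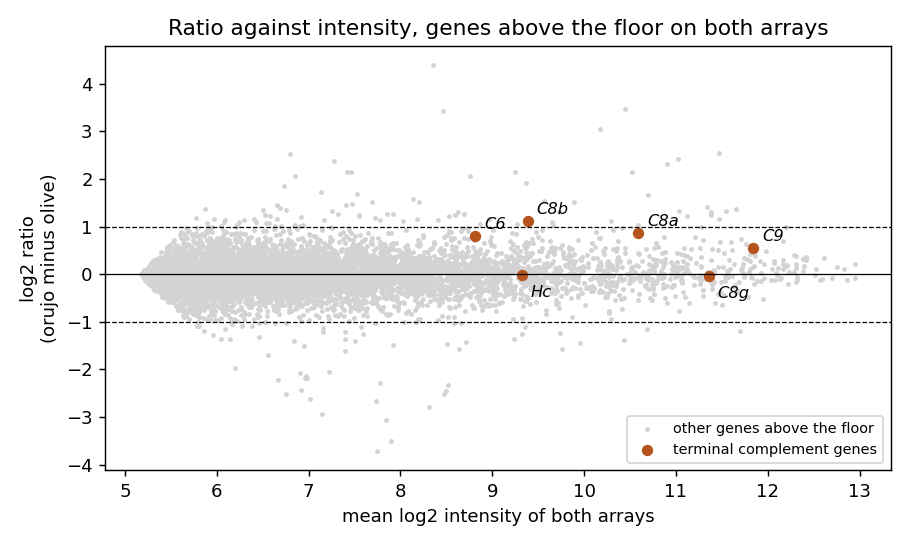
Log2 ratio (orujo minus olive) against mean log2 intensity for the 6640 genes above the floor on both arrays, with the terminal complement genes labelled and 2-fold limits dashed. C8b lies above the upper limit, C8a, C6 and C9 lie between it and 0, and Hc and C8g lie on the 0 line.

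By count, 1 of 6 members was at least 2-fold higher on the orujo array, against 1.36% of the 6640 measured genes, and 0 were at least 2-fold lower, against 0.979%. With the limit at 1.5-fold, 3 of 6 were higher (C8b, C8a and C6), against 5.57% of measured genes, and 0 were lower, against 5.56%. Bright genes had more high ratios: of the 972 genes at least as bright as C6, 2.98% were at least 2-fold and 7.51% at least 1.5-fold higher, and 0.926% and 4.12% were lower by those limits. The median log2 ratio of the members was 0.67, against −0.02 over all measured genes and 0.01 over the 972 bright ones, whose ratios had an SD of 0.42 and 0.45. With 6 genes on 1 pair of arrays these counts are a description and were not tested.

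Regulators that act on the terminal pathway, and the receptors of C5a, showed no member past 1.5-fold by its brightest probe set. Few genes were past it at all: 5.57% of all measured genes were at least 1.5-fold higher and 5.56% lower. Of 8 genes listed, 6 had a probe set and 5 were measured, with a median log2 ratio of 0.36. Vtn encodes vitronectin, which binds the nascent complex in plasma. It had 4286.8 on the orujo array and 3179.5 on the olive array (log2 ratio 0.43, and 0.44 in its other measured probe set). Clu encodes clusterin, which does the same, and its probe sets disagreed. The brightest had 3438.7 on the orujo array and 3979.7 on the olive array, a log2 ratio of −0.21, while the other three gave 0.33, 0.39 and 0.74. Cd59a, which encodes a membrane inhibitor of C9 insertion, had 155.2 on the orujo array and 157.2 on the olive array (log2 ratio −0.02, between −0.02 and 0.00 over the scalings tried, with a change of sign). Its other measured probe set gave −0.18. Cpn1 and Cpn2 encode the subunits of carboxypeptidase N, which removes an arginine from C5a, and had log2 ratios of 0.36 and 0.56. C5ar1, the C5a receptor, lay below the floor on both arrays, at 4.6 on the orujo array and 12.3 on the olive array. Cd59b and C5ar2 were not analysed here.

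The rest of the complement genes mostly had ratios above 0 as well, with a lower median than the members. Of 34 listed genes, 23 had a probe set with a single symbol and 20 were measured. Ratios were positive for 16 of these, against 47.5% of all measured genes. Of the 20, 3 were at least 1.5-fold higher, against 5.57% of all measured genes. None passed 2-fold in either direction, and of all measured genes only 1.36% did so upward and 0.979% downward. Their median log2 ratio was 0.34. The highest was C4bp, which encodes the C4b-binding protein, an inhibitor, with 1750.5 on the orujo array and 926.9 on the olive array (1.89-fold). C2, the protease of the classical and lectin C5 convertase, had 486.8 on the orujo array and 287.9 on the olive array (1.69-fold). Serping1, which encodes the C1 inhibitor, had 3219.2 on the orujo array and 1966.5 on the olive array (1.64-fold).

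By branch, all 6 classical pathway genes had positive ratios (median 0.46), as did the 3 genes of soluble inhibitors (median 0.71). Of all measured genes, 47.5% had. C1qa, C1qb and C1qc, which liver macrophages make, are 3 of the 6. The lectin pathway was mixed, with 3 of 5 positive and a median of 0.13. Cfb, the protease of the alternative pathway convertase, had 1799.4 on the orujo array and 1317.7 on the olive array (log2 ratio 0.45). The lowest ratios belonged to Cd46, a membrane cofactor of complement inactivation (−0.23), C3ar1, the C3a receptor (−0.21), and Masp1, a protease of the lectin pathway (−0.18). Other measured probe sets gave −0.41 for C3ar1 and −0.13 and 0.15 for Masp1. Cd46, with 43.8 on the orujo array and 51.6 on the olive array, was close to the floor. So was C3ar1, with 48.9 on the orujo array and 56.6 on the olive array. The number of positive ratios was 16 of 20 under each of the 4 other scalings too. Cd55, Cd55b and Cr2 were below the floor on both arrays, and C3, C4a, C4b, C1rb, C1s2, Cfd, Fcnb, Colec10 and Colec11 were among those not analysed here.

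**Figure D3:**
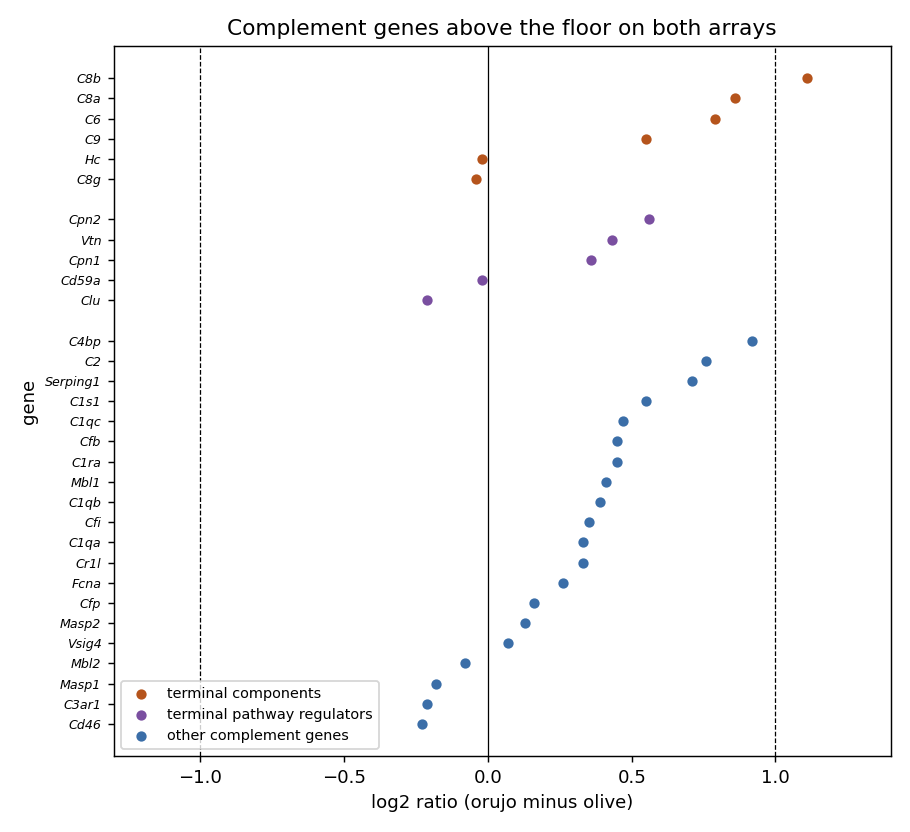
Log2 ratio (orujo minus olive) of the listed complement genes above the floor on both arrays: 6 terminal components, 5 regulators of the terminal pathway and 20 other complement genes, with 2-fold limits dashed. Of these genes, C8b alone is past a limit, and C4bp is the highest outside the terminal components.

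Among the other proteins with the perforin fold, Mpeg1, expressed in macrophages, had 163.6 on the orujo array and 123.5 on the olive array (log2 ratio 0.41). Prf1, the perforin of cytotoxic lymphocytes, had 35.8 on the orujo array and 45.5 on the olive array (log2 ratio −0.34), both close to the floor. Of 6 transcription factors described at liver complement promoters, 5 had a probe set. Cebpd, which is induced in the acute phase response, had 141.9 on the orujo array and 59.9 on the olive array (2.37-fold). Its other probe set did not show this: its scaled intensities, around the floor, were 35.2 on the orujo array and 36.5 on the olive array. Cebpb had 957.2 on the orujo array and 582.2 on the olive array (1.65-fold, with a log2 ratio of 0.52 in its other probe set). Cebpa had 778.5 on the orujo array and 1023.3 on the olive array (log2 ratio −0.39). Stat3 was at 0.50, with −0.63 and 0.26 in its other probe sets, and Hnf4a at 0.18, with −0.04 to 0.49 in its others.

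The 4 higher members shared the direction of most genes on an acute phase list. Hepatocytes induce many of the listed genes in inflammation, but not all of them. Ratios were positive for 22 of 23 measured acute phase genes, against 47.5% of all measured genes. Of the 23, 9 passed 2-fold upward and 0 downward, against 1.36% and 0.979% of all measured genes. The median log2 ratio was 0.73, with values from −0.35 (Saa4) to 4.39 (Orm2). Other things differed between the same arrays, and their part in the complement ratios was not tested. The 5′ and middle control probe sets of 18S ribosomal RNA had log2 ratios of 2.54 and 2.48, and the 3′ one 0.34, while the 3′, middle and 5′ sets of Gapdh lay between 0.09 and 0.15. Those of beta-actin were at −0.27 (3′), 0.01 (middle) and −0.02 (5′). Of 14 exocrine pancreas genes with a probe set, 11 were measured. All 11 had at least 2-fold lower signal on the orujo array, against 0.979% of all measured genes. They ran from Zg16 at −1.39 to Ctrb1 at −3.71 on the log2 scale. The other three were above the floor only on the olive array, and the summed scaled intensity of the list was 1052.5 on the orujo array and 6802.6 on the olive array. Of 12 neutrophil genes, 4 were above the floor only on the orujo array, against 394 of all 12393 genes. Their bounds were 1.13-fold to 1.71-fold, and 6 other neutrophil genes were measured. Of those 6, 4 had negative ratios and the median log2 ratio was −0.07, with values from −1.0 (Mmp9) to 3.05 (Lcn2, which is also on the acute phase list). The summed scaled intensity was 3775.1 on the orujo array and 819 on the olive array, and without Lcn2 it was 467 on the orujo array and 419 on the olive array.

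Markers of the labelled tissue were high on both arrays. The 14 hepatocyte genes with a probe set were all measured, with a summed scaled intensity of 71074.1 on the orujo array and 68780.4 on the olive array and a median log2 ratio of 0.03, between Apob at −0.26 and Arg1 at 0.49. The 10 measured macrophage genes had a median of 0.31, between Cd68 at −0.35 and C1qc at 0.47. C1qa, C1qb and C1qc, at 0.33, 0.39 and 0.47, are part of them and are also on the complement list. The others lay on both sides of 0: Cd68 at −0.35, Lyz2 at −0.16, Csf1r at −0.13, Clec4f at 0.03, Adgre1 at 0.28, Marco at 0.35 and Cd5l at 0.41. Apoe, the gene these mice lack, had 99.6 on the orujo array and 102.7 on the olive array. Whether its probe set lies within the deleted part is unknown here, so this signal is no check on the labels.

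The member ratios hardly moved with the processing, but several of the alternatives could not move them. Each member has 1 probe set above every floor tried, so neither the floors nor averaging over probe sets could change its ratio. The suffix rule gave either the same value or none. Leaving out the scaling, with its factors of 1.001 and 0.999, could change little. Over 5 scalings and 3 floors, a pseudocount and other probe set rules, C8b stayed between 1.05 and 1.13, C8a between 0.78 and 0.88, C6 between 0.73 and 0.81 and C9 between 0.43 and 0.57. Hc stayed between −0.04 and 0.00 and C8g between −0.14 and −0.02. Their count past 2-fold rests on the single probe set of C8b. Without probe sets that have the suffix _a, _s or _x, C8b and C8g had no value and 0 members passed 2-fold.

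**Figure D4:**
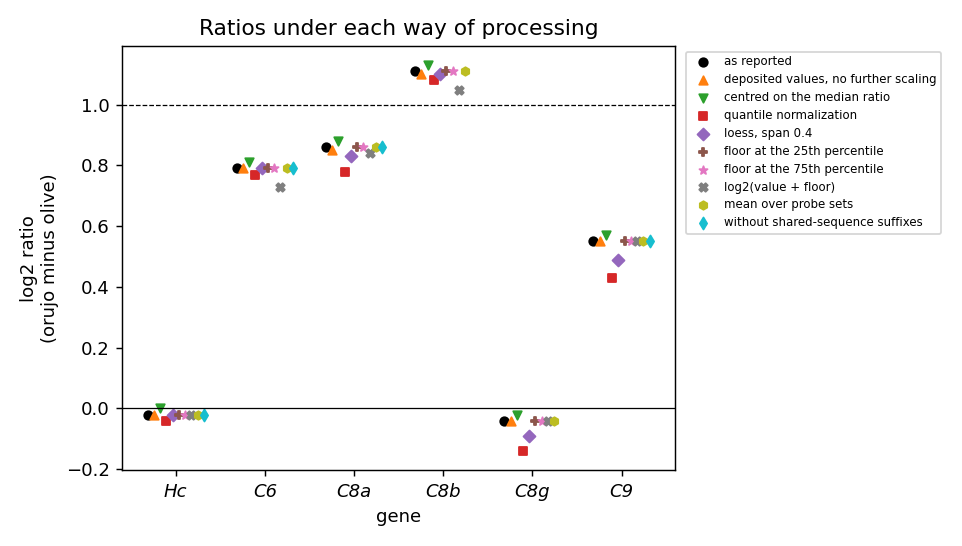
Log2 ratio (orujo minus olive) of each terminal complement gene as reported and under each other way of processing, with the 2-fold limit dashed. The values of a gene stay together, C8b alone lies above the limit, and Hc and C8g stay at or just below 0.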

How the data were processed

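Liver RNA, about 8 µg per target per the labels, was hybridised to 1 array per diet, orujo (unsaponifiable fraction) and olive (olive oil). The authors deposited 1 intensity per probe set on a linear scale. The labels name neither the summarising software nor detection calls. The 2% trimmed mean over all 22690 deposited intensities was 100.05 on both arrays, so the authors' values had been scaled together. With 64 control probe sets set apart, both arrays were scaled to their common 2% trimmed mean, a floor was set at the 50th percentile of both pooled (35.6), and values were compared as log2 (Python 3.11.15, numpy 2.4.6, statsmodels 0.14.6). Of 22626 probe sets, 20380 had 1 symbol, 691 several and 1555 none. Entrez identifiers of 20351 matched RefSeq (GRCm38.p6), with 0 symbols changed. A gene is read from its brightest probe set. The calculation was tested on simulated data, in which the planted changes were larger than any member's ratio, so the test does not cover ratios of that size. Precision is limited by the number of arrays, since read depth does not apply. Named were all members, all regulators, C3 and Cfb, the 3 highest and 3 lowest other complement genes, 2 perforin-fold genes, transcription factors, Apoe, and the extremes of marker lists. Dab1, Dab2, Fbxw5, C1qa, C1qb, C1qc and the macrophage genes Lyz2, Csf1r, Clec4f, Adgre1, Marco and Cd5l were named after their values were seen. Members and lists were chosen with earlier results of these data known, the branches after values and the motifs after promoter sequences were seen.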

Additional observations from a re-analysis of the deposited data

How the results depend on the processing

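The log2 ratios of the 6 members, and the medians of the members (0.60 to 0.69), of the other complement genes (0.32 to 0.37) and of the terminal regulators (0.30 to 0.38), moved by less than the noise of a probe set under each alternative that gave a value. The floors, averaging over probe sets and the suffix rule could not change a member's ratio, so they are no check on it. The count of members at least 2-fold higher was 1, but 3 with a limit of 1.5-fold. It was 0 without probe sets that have the suffix _a, _s or _x, because C8b then has no value. It was 1 under the other 8 alternatives, and the count of lower members was 0 under all 10. Counts over all genes depended on the floor: a floor at the 25th percentile gave 198 higher and 220 lower, one at the 75th gave 51 higher and 27 lower. They were 56 higher and 40 lower with log2(value + floor), 59 higher when a gene's probe sets were averaged, and 370 higher and 369 lower with the 1.5-fold limit, against 90 and 65 as reported. No paired analysis was possible because each diet has 1 array. For the same reason no array could be left out, and the variation between animals is unknown.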
